A study of Mus musculus with 56 samples.

Results

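The complement cascade is represented here by 34 genes, chosen by name from the known components of the pathway, out of the 45513 genes in the count files. All 34 were found in the files by their Ensembl identifiers. Following the known main source of each protein, 21 genes were classed as hepatocyte-made, 7 as macrophage-made and 6 as other (Cfd of adipose tissue, the cell surface regulators Cd55, Cd59a and Cr1l, and the collectins Colec10 and Colec11). Complement is a set of plasma proteins and receptors that tags and lyses microbes and damaged cells. The classical pathway starts with C1q on antibody, the lectin pathway with mannose-binding lectins, ficolins and collectins on sugars, and the alternative pathway with C3 itself. All of them cleave C3, the fragments C3a and C5a recruit white blood cells, and C5b to C9 build a pore. The liver makes most of these plasma proteins, whereas C1q comes mainly from macrophages, which in the liver are the Kupffer cells and recruited monocytes.

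Liver mRNA was sequenced from 56 female APOE*3Leiden.CETP mice in 7 groups of 8. This strain carries the human APOE*3Leiden, APOC1 and CETP genes, which gives it a human-like lipoprotein profile. All mice were 9 to 14 weeks old at the start and were fed a Western-type diet with 15% cacao butter and 0.15% cholesterol. Control mice were gavaged with the vehicle, 5% carboxymethyl cellulose. The BCR-ABL1 kinase inhibitors, which are used against chronic myeloid leukemia, were given for 16 weeks as imatinib at 150 mg/kg 2 times a day, nilotinib at 10 or 30 mg/kg, or ponatinib at 3 or 10 mg/kg, the last 2 drugs 1 time a day. The mice of the seventh group received L-NAME, an inhibitor of nitric oxide synthase, at 0.12 to 0.20% in drinking water together with the vehicle, and for this group the duration is not given in the sources used here. Each library is from 1 mouse, and whole liver was used, so that fewer cells of a type and less RNA per cell cannot be told apart in any result below. Markers of hepatocytes were abundant in every group, their summed level being between 64060 and 143200 CPM (counts scaled by TMM to a common library size, shown as CPM).

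The gene counts of a mouse summed to 5342379 at the least and 17996732 at the most, except for 97473341 in replicate 2 of the L-NAME group. The share of uniquely aligned reads outside annotated exons was 7.97% ± 0.422 in control mice, 8.53% ± 0.612 with ponatinib 3 mg/kg, 10.04% ± 1.82 with imatinib, 9.75% ± 0.691 and 10.5% ± 1.39 with nilotinib 10 and 30 mg/kg, 11% ± 1.99 with ponatinib 10 mg/kg and 11% ± 2.44 with L-NAME (mean ± SD, n = 8). With both nilotinib doses, ponatinib 10 mg/kg and L-NAME it was higher in all 8 mice than in any control mouse (exact permutation test, two-sided, p = 0.000155, the smallest that 8 against 8 allows, and 0.000233 after adjustment over 6 groups). In these 4 groups treatment and this share cannot be told apart. Fold changes against control also fell with exon length. With imatinib the median log2 fold change was 0.24 in the fifth of genes with the shortest exons and −0.15 in the fifth with the longest. Between imatinib and nilotinib 30 mg/kg, where the mean shares were 10.04% and 10.5%, these medians were 0.05 and −0.04.

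One ponatinib 10 mg/kg mouse, replicate 2, stood apart from all others. For 11 of the 34 complement genes (C1s1, C2, C3, Hc, C6, C8a, C8b, C9, C4bp, Vtn and Clu) it had the highest level of all 56 mice, and for Colec10 and Colec11 the lowest. Its C3 was 16710 CPM against 4617 to 8942 CPM in the other 7 mice of its group, and its C8a was 908 CPM against 63.9 to 245 CPM. Genes of the acute phase response, the program by which hepatocytes raise plasma defence proteins in inflammation, stood apart in the same mouse. Its Saa1 was 11880 CPM, whereas the highest of the other 55 mice had 1591 CPM, and its Lcn2 was 1906 against at most 724 CPM. Calls of the ponatinib 10 mg/kg group that change without this mouse are given both ways.

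Levels of different genes can be compared only per exon length, here as RPKM (reads scaled for exon length and library size) in the 8 control mice. C3, the component on which all pathways converge, was the most abundant with a median of 2107 RPKM (1573 to 2501). It was followed by vitronectin (Vtn), a plasma inhibitor of the lytic pore, with 1092 RPKM, and by clusterin (Clu), another inhibitor of the pore, with 475 RPKM. Mannose-binding lectin Mbl2 (432 RPKM), the C3b-cleaving protease factor I (Cfi, 362 RPKM) and C4b (240.3 RPKM) came next. Of the macrophage-made genes C1qb was the highest with 127 RPKM, and C1qa and C1qc followed with 85.9 and 56.4 RPKM. The anaphylatoxin receptors C3ar1 and C5ar1, the receptors for C3a and C5a, were low with 2.91 and 1.23 RPKM. In total, 11 genes had a median of at least 100 RPKM and 9 a median under 10 RPKM. In the order of medians 30 of the 33 neighbouring pairs had overlapping ranges, and the ranges were apart between Vtn and Clu, between C4b and C1s1 and between Cd59a and C2.

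**Figure D1:**
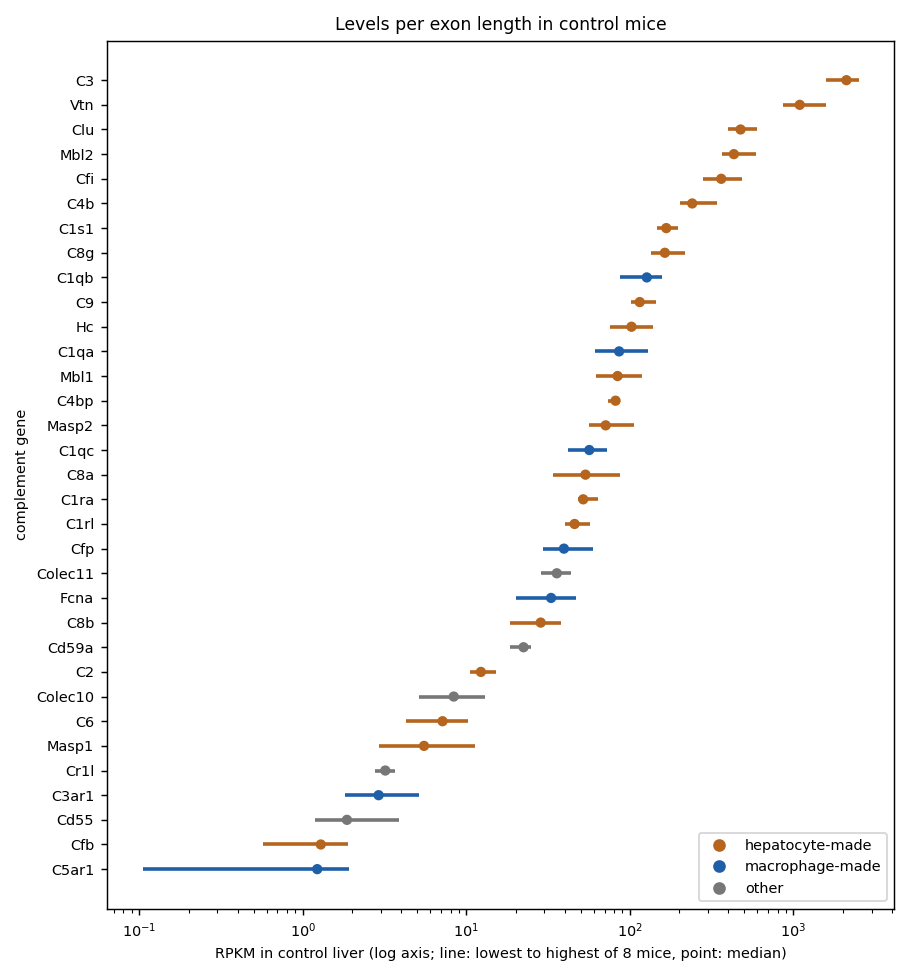
Level per exon length (RPKM, log axis) of 33 complement genes in control liver, with the line from the lowest to the highest of 8 mice and the point at the median. C3 stands at the top with a median of 2107 RPKM and the receptors C3ar1 and C5ar1 near the bottom with 2.91 and 1.23 RPKM. Cfd is not drawn because its median was 0.

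Several levels are uncertain from the annotation. Factor B (Cfb), the protease of the alternative pathway convertase, shares 79.5% of its exon bases with the overlapping gene Gm20547, and reads on both genes are counted on neither. Its counts were between 0 and 66 per mouse in the groups without L-NAME and up to 274 in the L-NAME group, and its values say little of the gene's expression. The overlap is 46.9% for C2 with Gm20547 and Zbtb12, 54.9% for Masp2 with Tardbp on the opposite strand and 18.4% for C1s1 with an antisense gene. C4b, C1ra, C1s1 and Cd59a have close paralogs, and reads that align to more than 1 place were not counted. Factor D (Cfd), the adipose protease that activates factor B, had no read in 6 or 7 of the 8 mice of every group, reached at most 4.06 CPM, and failed the filter on low counts.

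Each group was compared with control, and drugs and doses with each other, by edgeR's quasi-likelihood test over all 56 mice. A gene was called at a Benjamini-Hochberg adjusted p below 0.05 over the 14314 genes tested, 33 of the 34 complement genes among them. All comparisons with control share the same 8 control mice. With imatinib 11 of 33 complement genes were called, 4 higher and 7 lower, beside 10.3% of all genes (5.69% higher, 4.58% lower). With nilotinib 30 mg/kg 7 were called, 2 higher and 5 lower, beside 5.77% of all genes (2.34% higher, 3.43% lower). Nilotinib 10 mg/kg gave 2, both lower, beside 1.41% (0.943% lower). With ponatinib 10 mg/kg 8 were called, 6 higher and 2 lower, beside 13.1% (7.24% higher, 5.87% lower). Without the mouse that stood apart these numbers were 10, 5 and 5, beside 13.6% of all genes. Then Mbl1 was no longer called, and C9, C4bp (−0.33, edgeR adjusted p = 0.0229) and C3ar1 (−1.18, edgeR adjusted p = 0.0301) were called as lower. Ponatinib 3 mg/kg gave none by edgeR, beside 0.0419% of all genes. An unadjusted p below 0.01 also gave 0, beside 3.14%, and limma with quality weights gave 4, beside 3.99%. L-NAME gave 7, 4 higher and 3 lower, beside 11.8% (5.55% higher, 6.24% lower), and 4 without its deepest library, beside 9.71%.

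At an unadjusted p below 0.01, the cut-off in the study's methods, edgeR gave 13 (beside 12.9% of all genes) for imatinib. The nilotinib doses had 6 (beside 5.97% of all genes) and 10 (beside 9.35% of all genes), and those of ponatinib 0 (beside 3.14% of all genes) and 8 (beside 15% of all genes), lower dose first. L-NAME had 8 (beside 14% of all genes). Between drugs the same cut-off gave 6 (beside 4.09% of all genes) in ponatinib against imatinib, 9 (beside 5.64% of all genes) in ponatinib against nilotinib and 7 (beside 7.55% of all genes) in imatinib against nilotinib, at the highest doses.

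In all, 14 members were called in at least 1 comparison with control, 6 only as higher and 8 only as lower, and 19 in none, beside 22% of all genes called in at least 1 of the same comparisons. The higher ones were C8g, Fcna, Mbl1, Mbl2, Masp2 and Vtn, and the lower ones were C3, C4b, Hc, C8b, C9, C4bp, Masp1 and C3ar1. Members' fold changes against control fell with exon length, with Spearman rho from −0.59 to −0.34 over the comparisons. Over all genes rho was −0.27 to −0.17. The part of exon length in this split was not tested. The median log2 fold change of the 21 hepatocyte-made genes was −0.22 both for imatinib and for nilotinib 30 mg/kg, and 0.04 for ponatinib 10 mg/kg, beside −0.02, 0.03 and −0.01 over all genes. For the 7 macrophage-made genes it was −0.48, 0.57 and −0.05. Of the 35 calls against control, 5 were kept when the share of reads outside exons was a covariate (C8g, C9 and Masp1 with imatinib, Vtn with ponatinib 10 mg/kg, Masp1 with L-NAME), and 18 when an offset smoothed on exon length was added. All 12 calls between drug groups were kept under both. Of all 47 calls 22 were kept without the 10 libraries whose depth stood apart.

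**Figure D2:**
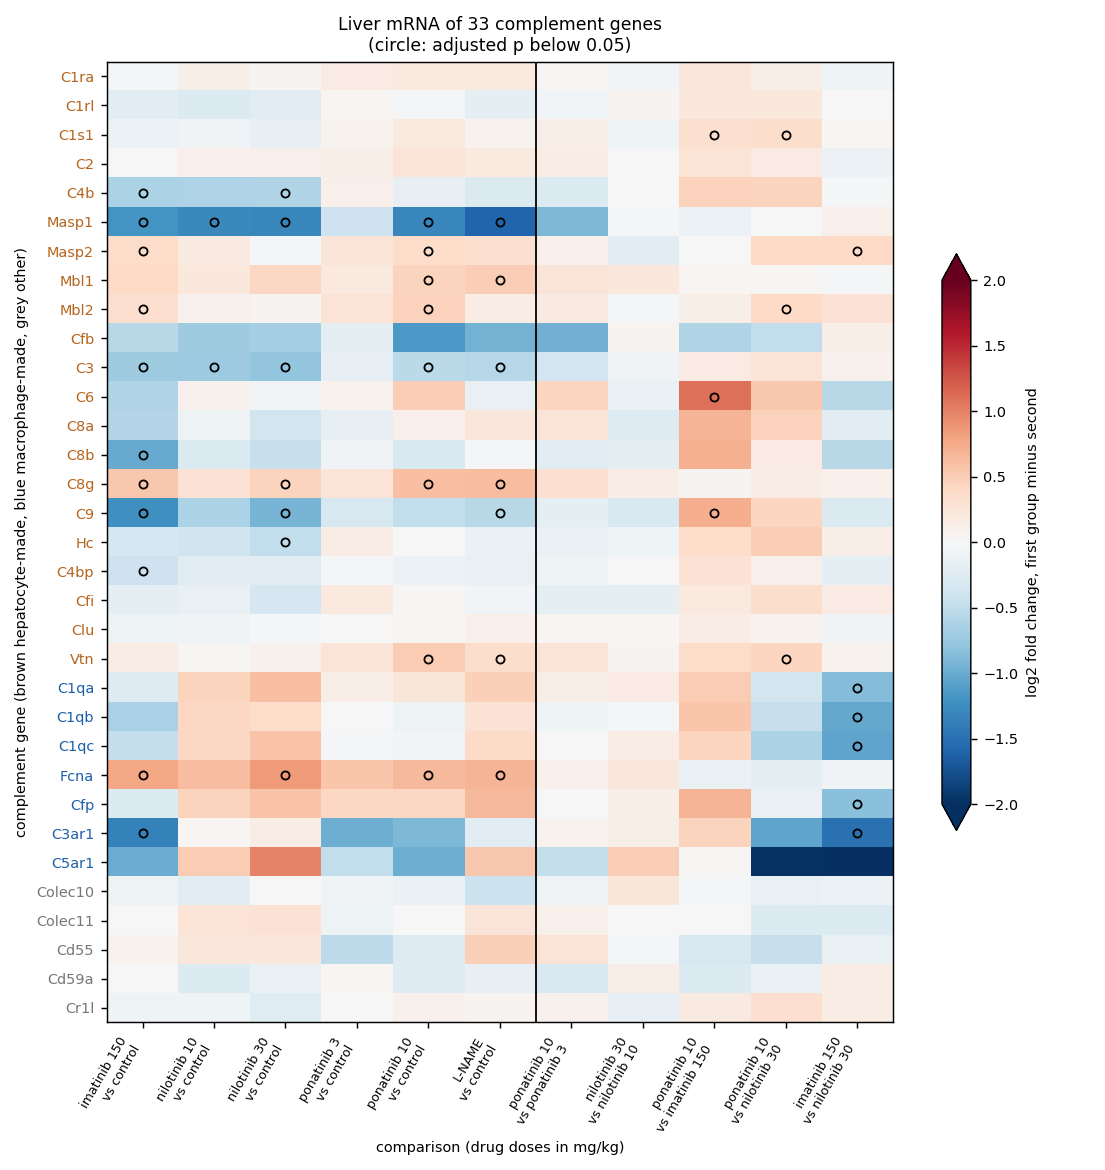
Log2 fold change (colour) of 33 complement genes in 11 comparisons, those with control left of the line, with circles at an adjusted p below 0.05. Masp1 and C3 are blue and circled in 5 of 6 comparisons with control, and the C1q genes, Cfp and C3ar1 are circled in imatinib against nilotinib 30 mg/kg. C5ar1 is dark blue without a circle in the last 2 comparisons.

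By edgeR over all 56 mice C3 was called as lower than in control mice in 5 of the 6 treated groups, all but ponatinib 3 mg/kg. It was 8087 to 12860 CPM (median 10840) in control mice, 5077 to 10060 CPM (median 5546) with imatinib, 5196 to 8412 CPM (median 5986) and 5044 to 7156 CPM (median 6097) with nilotinib 10 and 30 mg/kg. With nilotinib 30 mg/kg all 8 mice were below every control mouse, and with imatinib 6 of 8 were. The log2 fold change was −0.70 ± 0.18 (SE, edgeR adjusted p = 0.00762) with imatinib. It was −0.72 ± 0.18 (SE, edgeR adjusted p = 0.0268) and −0.80 ± 0.18 (SE, edgeR adjusted p = 0.00468) with the 2 nilotinib doses. With ponatinib 10 mg/kg C3 was 4617 to 16710 CPM (median 5224), 6 of 8 mice being below every control mouse and the mouse that stood apart above all. The log2 fold change was −0.54 ± 0.18 (SE, edgeR adjusted p = 0.036), and −0.85, edgeR adjusted p = 0.000129 without that mouse. With L-NAME the range was 5155 to 10240 CPM (median 6830) and the change −0.57 ± 0.18 (SE, edgeR adjusted p = 0.029). With ponatinib 3 mg/kg the range was 7190 to 14590 CPM (median 8010) and the difference −0.16 ± 0.18 (SE, edgeR adjusted p = 0.848). The offset smoothed on exon length left only the C3 calls with imatinib and nilotinib 30 mg/kg. Leaving out the 10 libraries whose depth stood apart removed those with nilotinib 10 mg/kg and L-NAME. The ponatinib 10 mg/kg call was also lost by DESeq2 and when only the 2 groups compared were fitted. With the share of reads outside exons as covariate no C3 call was left, the log2 fold changes being −0.49, edgeR adjusted p = 0.0906 with imatinib and −0.50, edgeR adjusted p = 0.186 with nilotinib 30 mg/kg. Within groups, C3 was lower in mice with a higher share of such reads (56 mice, group means subtracted, Pearson r = −0.44, permutation p = 0.00586, Spearman rho = −0.49, permutation p = 0.00024, adjusted p = 0.0483 and 0.00792 over 33 genes, r = −0.48 without the 2 most distant mice). Its part in the C3 result was not tested further.

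Of the alternative pathway, Cfb was called in no comparison by any fit run. Its level was 1.61 to 5.35 CPM (median 3.64) in control mice, 0 to 8.96 CPM (median 1.17) with imatinib, 0.351 to 4.71 CPM (median 1.96) and 0 to 4.5 CPM (median 2.07) with the nilotinib doses, 0 to 6.19 CPM (median 3.25) and 0 to 4.18 CPM (median 1.12) with the ponatinib doses and 0 to 4.75 CPM (median 1.7) with L-NAME. All groups overlapped. Its log2 fold changes against control were from −1.15 ± 0.77 (SE) with ponatinib 10 mg/kg to −0.18 ± 0.76 with ponatinib 3 mg/kg, with edgeR adjusted p from 0.366 to 0.967.

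In the classical pathway, which cleaves C4 and C2, C4b was the only gene called against control. C4b had 1148 to 1931 CPM (median 1368) in control mice, 743 to 1302 CPM (median 862) with imatinib and 704 to 1493 CPM (median 929) with nilotinib 30 mg/kg, and in each of these groups 6 of 8 mice were below every control mouse. The log2 fold changes were −0.63 ± 0.17 (SE, edgeR adjusted p = 0.0132) and −0.60 ± 0.17 (SE, edgeR adjusted p = 0.0258). Both C4b calls were lost with the share of reads outside exons as covariate and with the length offset. With nilotinib 10 mg/kg C4b was called as lower by DESeq2, limma, edgeR on only the 2 groups compared and edgeR without the mouse that stood apart. By limma it was also lower with L-NAME. The proteases C1ra, C1rl and C2 were called by edgeR in no comparison, whereas limma called C1rl with imatinib and nilotinib, C2 with ponatinib 10 mg/kg and C1ra with ponatinib and L-NAME, and DESeq2 C1ra with L-NAME. C1s1, the protease of the C1 complex that cleaves C4, was not called against control by edgeR, with log2 fold changes from −0.16 to 0.20. DESeq2 and limma called C1s1 with ponatinib 10 mg/kg.

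The C1q genes were not called against control by edgeR over all 56 mice without an offset. With the length offset, or without the mouse that stood apart, C1qb was called with imatinib, and without the 10 libraries whose depth stood apart C1qa with nilotinib 30 mg/kg. DESeq2 and limma called C1qa with nilotinib 30 mg/kg and limma called C1qb with imatinib, while edgeR on only the 2 groups compared called C1qb and C1qc with imatinib and C1qa and C1qc with nilotinib 30 mg/kg. C1qa, C1qb and C1qc encode the 3 chains of C1q and lie side by side on chromosome 4 (GRCm38, C1qb at chr4:136880129-136886187, C1qc at chr4:136889804-136893065 and C1qa at chr4:136895917-136898803, all on the minus strand). With imatinib their log2 fold changes were −0.26 ± 0.21 (SE, edgeR adjusted p = 0.502), −0.65 ± 0.23 (SE, edgeR adjusted p = 0.0545) and −0.48 ± 0.23 (SE, edgeR adjusted p = 0.184) in the order C1qa, C1qb, C1qc. With nilotinib 10 mg/kg they were 0.44 ± 0.21 (SE, edgeR adjusted p = 0.311), 0.41 ± 0.23 (SE, edgeR adjusted p = 0.426) and 0.42 ± 0.23 (SE, edgeR adjusted p = 0.399). With nilotinib 30 mg/kg they were 0.61 ± 0.21 (SE, edgeR adjusted p = 0.0672), 0.37 ± 0.23 (SE, edgeR adjusted p = 0.407) and 0.57 ± 0.23 (SE, edgeR adjusted p = 0.128). Imatinib was thus on the lower side and nilotinib on the higher side of control, each without passing that test.

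For ponatinib 3 mg/kg the 3 log2 fold changes lay between −0.04 and 0.13, for ponatinib 10 mg/kg between −0.09 and 0.25 and for L-NAME between 0.29 and 0.48, with edgeR adjusted p from 0.906 to 0.997, from 0.496 to 0.919 and from 0.129 to 0.493. With ponatinib 10 mg/kg the mice were spread the most. C1qb was 56.5 to 242 CPM (median 104) there, against 94.5 to 172 CPM (median 138) in control mice, so that the treated mice lay on both sides of the control range.

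Imatinib and nilotinib 30 mg/kg were then compared with each other. Of the 7 macrophage-made genes 5 were lower with imatinib and 1 of 21 hepatocyte-made genes was higher, beside 3.59% of all genes called (2.38% lower, 1.22% higher). The doses in mg/kg differ between the drugs, as they do in all comparisons between drugs below. C1qa was 45.5 to 117 CPM (median 78) with imatinib and 91.6 to 169 CPM (median 138) with nilotinib 30 mg/kg. C1qb was 57.6 to 136 CPM (median 80.4) against 112 to 263 CPM (median 169), and C1qc was 57.1 to 106 CPM (median 72) against 104 to 225 CPM (median 159). For each of the 3 genes 7 of 8 imatinib mice were below every nilotinib mouse. The log2 differences were −0.86 ± 0.21 (SE, edgeR adjusted p = 0.00852) for C1qa, −1.02 ± 0.23 (SE, edgeR adjusted p = 0.0043) for C1qb and −1.05 ± 0.23 (SE, edgeR adjusted p = 0.0029) for C1qc. By exact permutation of the mice, two-sided, p was 0.000466, 0.000466 and 0.000311.

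C3ar1, the receptor for the anaphylatoxin C3a, was 0.563 to 11.7 CPM (median 3.78) with imatinib and 7.07 to 26.5 CPM (median 13.2) with nilotinib 30 mg/kg, and 6 of 8 imatinib mice were below every nilotinib mouse. Its log2 difference was −1.49 ± 0.39 (SE, edgeR adjusted p = 0.015). Against control, with 7.81 to 22.2 CPM (median 12.5), it was also lower with imatinib, by −1.34 ± 0.38 (SE, edgeR adjusted p = 0.0163). Properdin (Cfp), which stabilizes the C3 convertase of the alternative pathway and is made by leukocytes, was 32.7 to 81.6 CPM (median 60.1) against 74.4 to 136 CPM (median 109), with a log2 difference of −0.83 ± 0.23 (SE, edgeR adjusted p = 0.0257). C5ar1, the receptor for C5a, had −1.99 ± 0.68 (SE, edgeR adjusted p = 0.0876) and was not called. Ficolin A (Fcna), the ficolin of liver macrophages, was not called, being 55.2 to 106 CPM (median 73.5) and 46.1 to 114 CPM (median 77.9) in the 2 groups, with a difference of −0.07 and a 95% interval of −0.49 to 0.36 on the log2 scale. For C3, Hc and Cfb the differences were 0.09 ± 0.18 (SE, edgeR adjusted p = 0.884), 0.13 ± 0.15 (SE, edgeR adjusted p = 0.773) and 0.11 ± 0.76 (SE, edgeR adjusted p = 0.969). The calls of C1qa, C1qb, C1qc and Cfp were kept under each of the 11 other fits, and that of C3ar1 under 10, all but the fit without the 10 libraries whose depth stood apart.

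**Figure D3:**
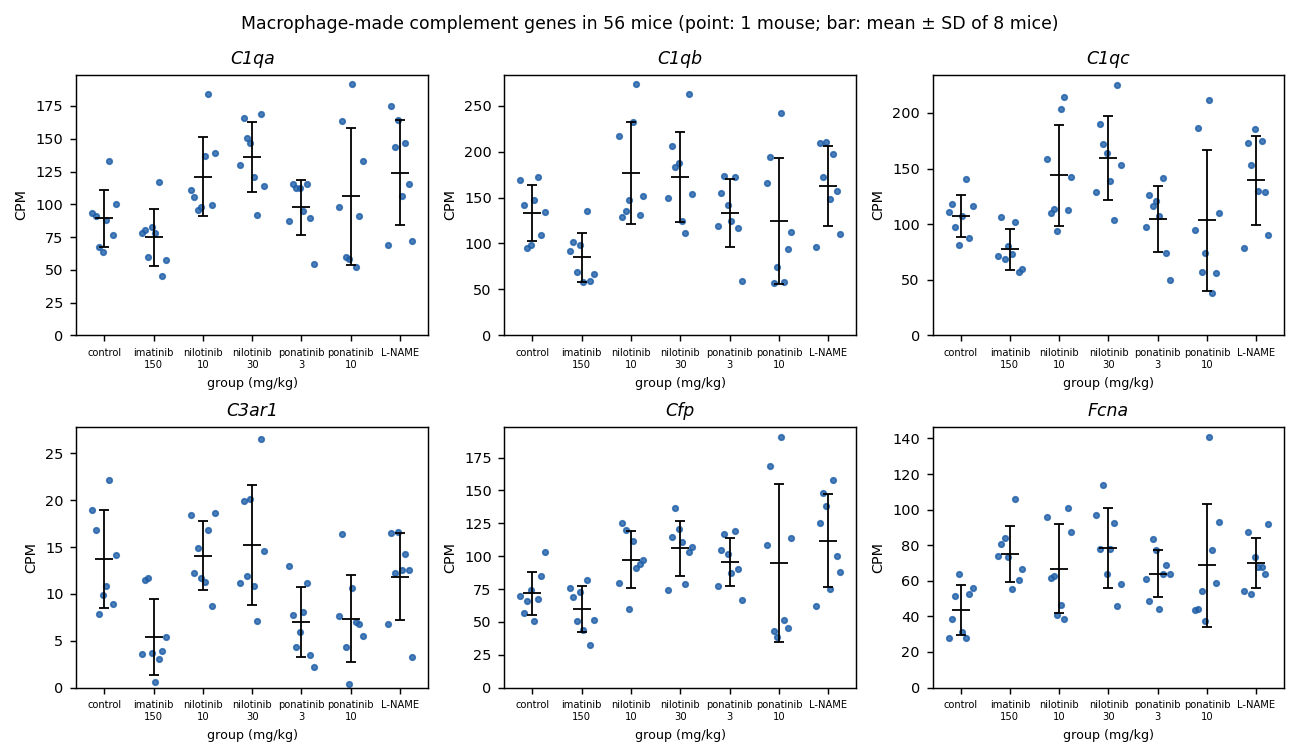
Level in CPM of 6 macrophage-made genes by group, each point 1 mouse and each bar the mean ± SD of 8 mice. The imatinib mice lie below most nilotinib 30 mg/kg mice for C1qa, C1qb, C1qc, C3ar1 and Cfp, while the mean of Fcna is 64.04 to 78.5 CPM in the treated groups and 43.8 CPM in control mice.

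Some markers of Kupffer cells were lower as well. The summed level of the 9 markers was 887 to 1784 CPM (median 1259) in control mice, 535 to 1054 CPM (median 802) with imatinib and 987 to 1747 CPM (median 1472) with nilotinib 30 mg/kg, and none of the 9 was at 0 in all mice of a group. Between imatinib and nilotinib 30 mg/kg 2 of the 9 were lower and 0 higher by the same test, Cd5l by −1.42 and Cd68 by −1.14 on the log2 scale, beside 2.38% of all genes. Against control 4 of the 9 were lower with imatinib (Adgre1, Cd5l, Cd68 and Csf1r, named after their values were seen), beside 4.58% of all genes, and 0 higher. Cd5l made up much of the sum, with a median of 249.6 CPM with imatinib, 701 CPM with nilotinib 30 mg/kg and 614 CPM in control mice. The Kupffer cell lectin Clec4f was called in neither comparison, being 127 to 289 CPM with imatinib, 209.9 to 349 CPM with nilotinib 30 mg/kg and 103 to 268 CPM in control mice. The 7 markers of monocytes and neutrophils summed to 81.5 to 176 CPM with imatinib, 172 to 493 CPM with nilotinib 30 mg/kg and 142 to 421 CPM in control mice. Nearly all of this sum was Lyz2, with medians of 92.6, 305 and 284 CPM in these groups, and it was the 1 of the 7 called in either comparison. The part of cell numbers in the C1q, C3ar1 and Cfp result was not tested.

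Promoters of genes that moved together are shown with that of Fcna, which was not called in this comparison. The sequences are the 250 bases before the RefSeq transcription start (GRCm38.p6), on the strand of the gene, and 24 of the 34 members had 1 entry. Capitals mark GAGGAA, a core letter string of PU.1-type sites, or its reverse complement TTCCTC. The listed positions are chr4:136886201-136886450 for C1qb, chr4:136892915-136893164 for C1qc, chr6:122856158-122856407 for C3ar1, chrX:20931556-20931805 for Cfp and chr2:25627975-25628224 for Fcna, all on the minus strand.
C1qb: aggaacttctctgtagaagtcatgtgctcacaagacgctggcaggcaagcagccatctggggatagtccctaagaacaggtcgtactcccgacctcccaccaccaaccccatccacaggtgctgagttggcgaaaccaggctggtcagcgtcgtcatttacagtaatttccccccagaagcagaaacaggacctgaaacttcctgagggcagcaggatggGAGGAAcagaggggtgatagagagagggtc
C1qc: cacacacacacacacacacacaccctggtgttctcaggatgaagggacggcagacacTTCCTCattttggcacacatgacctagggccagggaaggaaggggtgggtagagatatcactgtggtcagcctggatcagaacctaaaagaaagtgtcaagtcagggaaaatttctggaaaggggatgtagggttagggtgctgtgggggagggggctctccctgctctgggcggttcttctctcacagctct
C3ar1: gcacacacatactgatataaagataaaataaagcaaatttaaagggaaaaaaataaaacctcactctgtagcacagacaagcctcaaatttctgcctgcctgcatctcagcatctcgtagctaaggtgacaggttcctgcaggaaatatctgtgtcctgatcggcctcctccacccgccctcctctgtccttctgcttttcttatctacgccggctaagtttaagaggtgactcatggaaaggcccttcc
Cfp: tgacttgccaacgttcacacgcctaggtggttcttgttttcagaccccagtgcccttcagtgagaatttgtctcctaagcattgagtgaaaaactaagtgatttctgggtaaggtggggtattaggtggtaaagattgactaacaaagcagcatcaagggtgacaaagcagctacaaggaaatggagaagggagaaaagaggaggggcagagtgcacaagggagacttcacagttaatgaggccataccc
Fcna: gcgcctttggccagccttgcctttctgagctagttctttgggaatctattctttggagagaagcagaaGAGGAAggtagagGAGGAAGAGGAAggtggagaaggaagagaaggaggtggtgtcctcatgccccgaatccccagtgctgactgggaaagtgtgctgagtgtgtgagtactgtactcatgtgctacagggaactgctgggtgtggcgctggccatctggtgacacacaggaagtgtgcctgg
GAGGAA was searched on both strands. It was found in 3 of 6 macrophage-made promoters (1 time in C1qb, 1 time in C1qc, 3 times in Fcna) and in 0 of 13 hepatocyte-made ones, while 23.3% of all 32851 promoters of this length hold it. GTTAAT, a letter string of HNF1-type sites, was found on either strand in 6 of the 13 hepatocyte-made promoters (C1ra, Hc, C8a, C8b, C4bp and Vtn) and in 1 of the 6 macrophage-made ones (Cfp), and in 6.43% of all promoters. These matches describe letters and were not tested.

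In the lectin pathway the changes against control went both ways. Masp1, which encodes the serine proteases MASP-1 and MASP-3 of this pathway, had the largest decrease among hepatocyte-made genes with nilotinib, ponatinib 10 mg/kg and L-NAME. It was 28.8 to 111 CPM (median 54.2) in control mice, 8.16 to 50.5 CPM (median 20.4) with imatinib, 14.2 to 32.8 CPM (median 24.3) with nilotinib 10 mg/kg and 16.7 to 28.1 CPM (median 24.3) with nilotinib 30 mg/kg. The log2 fold changes of these 3 groups were −1.20 ± 0.26 (SE, edgeR adjusted p = 0.00184), −1.28 ± 0.26 (SE, edgeR adjusted p = 0.00847) and −1.30 ± 0.26 (SE, edgeR adjusted p = 0.00155). With ponatinib 10 mg/kg it was 11.5 to 56.9 CPM (median 19.1), with a change of −1.31 ± 0.26 (SE, edgeR adjusted p = 0.000495), and with L-NAME 12.7 to 36.9 CPM (median 17.8) and −1.58 ± 0.27 (SE, edgeR adjusted p = 7.36e-05). All 8 nilotinib 30 mg/kg mice were below every control mouse, and 7 of 8 L-NAME mice were. Masp1 is with 9833 exon bases the second longest of the 34 genes. With the exon length offset the change was still −1.04, edgeR adjusted p = 0.00528 with imatinib and −1.43, edgeR adjusted p = 0.000173 with L-NAME. With the covariate the changes of these groups were −0.88, edgeR adjusted p = 0.0271 and −1.08, edgeR adjusted p = 0.0242. The Masp1 calls of both nilotinib doses and ponatinib 10 mg/kg were kept with the offset but lost with the covariate. That with nilotinib 10 mg/kg was also lost without the 10 libraries whose depth stood apart.

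Within groups Masp1 was also lower in mice with a higher share of reads outside exons (56 mice, group means subtracted, Pearson r = −0.44, permutation p = 0.00479, Spearman rho = −0.41, permutation p = 0.00231, adjusted p = 0.0483 and 0.0158 over 33 genes, r = −0.38 without the 2 most distant mice). Of the 33 genes 4 had an adjusted Pearson p below 0.05 with this share (C1rl, C3, Cfi and Masp1), 4 negative and 0 positive. By Spearman's rho 5 were negative (C3, C8a, Cfi, C4bp and Masp1) and 1 was positive, C8g (rho = 0.42, permutation p = 0.00239, adjusted p = 0.0158, Pearson r = 0.32).

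Fcna was higher with imatinib, nilotinib 30 mg/kg, ponatinib 10 mg/kg and L-NAME. It was 27.8 to 64 CPM (median 45.3) in control mice, 37.6 to 141 CPM (median 56.5) with ponatinib 10 mg/kg and 52.5 to 91.8 CPM (median 67.8) with L-NAME, beside the ranges of imatinib and nilotinib 30 mg/kg above. Its log2 fold changes were 0.78 ± 0.21 (SE, edgeR adjusted p = 0.0116) with imatinib, 0.84 ± 0.21 (SE, edgeR adjusted p = 0.00962) with nilotinib 30 mg/kg, 0.65 ± 0.21 (SE, edgeR adjusted p = 0.0311) with ponatinib 10 mg/kg and 0.68 ± 0.21 (SE, edgeR adjusted p = 0.0256) with L-NAME. None of these calls was kept with the covariate (edgeR adjusted p from 0.0744 to 0.34) or with the length offset (from 0.0602 to 0.177), while the log2 fold changes stayed positive, from 0.48 to 0.71 with the covariate and from 0.45 to 0.65 with the offset.

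The soluble lectins Mbl1 and Mbl2 recognize mannose on microbes. Mbl2 was 398 to 639 CPM (median 471) in control mice, 567 to 667 CPM (median 615) with imatinib and 467 to 910.4 CPM (median 656) with ponatinib 10 mg/kg. The changes were 0.34 ± 0.11 (SE, edgeR adjusted p = 0.034) and 0.46 ± 0.11 (SE, edgeR adjusted p = 0.00262). Both Mbl2 calls were lost with the covariate and with the length offset. Mbl1 was 97.7 to 186 CPM (median 132) in control mice, 143 to 262 CPM (median 167) with ponatinib 10 mg/kg and 132 to 268 CPM (median 176) with L-NAME, and changed by 0.44 ± 0.14 (SE, edgeR adjusted p = 0.0319) and 0.50 ± 0.14 (SE, edgeR adjusted p = 0.0155). Without the mouse that stood apart the Mbl1 value with ponatinib 10 mg/kg was 0.35, edgeR adjusted p = 0.0981. The Mbl1 calls of both groups were lost with the covariate and with the length offset. Masp2, the protease that cleaves C4 in this pathway, was 185 to 349.6 CPM (median 235) in control mice, 254 to 376 CPM (median 323) with imatinib and 211 to 382 CPM (median 323) with ponatinib 10 mg/kg. Its changes were 0.37 ± 0.12 (SE, edgeR adjusted p = 0.0384) and 0.37 ± 0.12 (SE, edgeR adjusted p = 0.0349), and the ranges overlapped with control. Each of these Masp2 calls was kept in 7 of 11 other fits, and both were lost with the covariate. Masp2 was also higher with imatinib than with nilotinib 30 mg/kg, where it was 183 to 278 CPM (median 248), by 0.40 ± 0.12 (SE, edgeR adjusted p = 0.0452). That call was kept in 8 of 11 other fits. Colec10 and Colec11 were called by edgeR in no comparison, and limma called Colec11 with nilotinib 30 mg/kg and L-NAME.

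In the terminal pathway, C9 and C8g moved in opposite directions. C9, which polymerizes into the pore, was 258 to 370.4 CPM (median 293) in control mice, 93.8 to 175 CPM (median 131) with imatinib, 124 to 208 CPM (median 149) with nilotinib 30 mg/kg and 153 to 253 CPM (median 204) with L-NAME. In each of these 3 groups all 8 mice were below every control mouse. The log2 fold changes were −1.23 ± 0.19 (SE, edgeR adjusted p = 1.94e-05), −0.93 ± 0.19 (SE, edgeR adjusted p = 0.00188) and −0.55 ± 0.19 (SE, edgeR adjusted p = 0.0472). The L-NAME call was lost in 5 of 10 other fits, among them the one without replicate 2 of that group (−0.54, edgeR adjusted p = 0.0718). The imatinib value was kept in all 11 other fits, and was −1.07, edgeR adjusted p = 0.000669 with the covariate. With ponatinib 10 mg/kg C9 was 114 to 536 CPM (median 163), and the change was −0.50 ± 0.19 (SE, edgeR adjusted p = 0.0735) with and −0.86, edgeR adjusted p = 0.000138 without the mouse that stood apart.

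C8g encodes the gamma chain of C8, a lipocalin joined to the alpha chain. It was 201 to 322 CPM (median 244) in control mice, 263 to 476 CPM (median 379.7) with imatinib, 272 to 479 CPM (median 323) with nilotinib 30 mg/kg, 261 to 470 CPM (median 393) with ponatinib 10 mg/kg and 286 to 475 CPM (median 399) with L-NAME. The C8g changes were 0.54 ± 0.13 (SE, edgeR adjusted p = 0.00349), 0.44 ± 0.13 (SE, edgeR adjusted p = 0.0266), 0.60 ± 0.13 (SE, edgeR adjusted p = 0.00105) and 0.61 ± 0.13 (SE, edgeR adjusted p = 0.000809) in that order. In each of these groups all 8 mice were above the control median. With the covariate the imatinib value was 0.43, edgeR adjusted p = 0.0495 and those of the other 3 groups were not called. Without the 10 libraries whose depth stood apart only the L-NAME value was called (0.52, edgeR adjusted p = 0.0402). The imatinib value was then 0.43, edgeR adjusted p = 0.111. The nilotinib 30 mg/kg call was also lost with the length offset.

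The other chains of C8 did not follow C8g. C8b was 47.1 to 96.4 CPM (median 72.5) in control mice and 17.2 to 55.9 CPM (median 37.9) with imatinib, 7 of 8 mice being below every control mouse, with a change of −1.01 ± 0.29 (SE, edgeR adjusted p = 0.0147). C8a was called in no comparison by edgeR over all mice, and with imatinib when only these 2 groups were fitted. Hc, the gene of C5, was 471 to 862 CPM (median 640.3) in control mice, 433 to 727 CPM (median 497) with imatinib, 389.7 to 786 CPM (median 474) and 357 to 645 CPM (median 476) with the nilotinib doses and 493 to 1036 CPM (median 617) with ponatinib 10 mg/kg. Only nilotinib 30 mg/kg passed the edgeR test, with −0.49 ± 0.15 (SE, edgeR adjusted p = 0.0369), a call lost with the covariate and with the length offset. By limma Hc was called with imatinib and both nilotinib doses. The other groups had edgeR changes of −0.36 ± 0.15 (SE, edgeR adjusted p = 0.116) with imatinib, −0.40 ± 0.15 (SE, edgeR adjusted p = 0.156) with nilotinib 10 mg/kg, 0.01 ± 0.15 (SE, edgeR adjusted p = 0.969) with ponatinib 10 mg/kg, 0.15 ± 0.15 (SE, edgeR adjusted p = 0.809) with ponatinib 3 mg/kg and −0.14 ± 0.15 (SE, edgeR adjusted p = 0.649) with L-NAME. A direct test of nilotinib 30 against 10 mg/kg gave −0.08 for Hc with a 95% interval of −0.38 to 0.22.

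Among the regulators, Vtn was 1740 to 3225 CPM (median 2218) in control mice, 2510 to 4999 CPM (median 3213) with ponatinib 10 mg/kg and 2640 to 3384 CPM (median 2993) with L-NAME. It rose by 0.51 ± 0.12 (SE, edgeR adjusted p = 0.00221) and 0.35 ± 0.12 (SE, edgeR adjusted p = 0.0425), and in both groups all 8 mice were above the control median. Without the mouse that stood apart the ponatinib value was 0.40, edgeR adjusted p = 0.0116, and with the covariate it was 0.53, edgeR adjusted p = 0.0232. Without the 10 libraries whose depth stood apart it was 0.24, edgeR adjusted p = 0.327 and not called. The L-NAME call was lost in 5 of 10 other fits, among them the one without replicate 2 of that group (0.36, edgeR adjusted p = 0.0554). C4bp, which inhibits the C4b convertase, was 493 to 567 CPM (median 549.7) in control mice and 347 to 467 CPM (median 412) with imatinib. All 8 imatinib mice were below every control mouse, with a change of −0.41 ± 0.13 (SE, edgeR adjusted p = 0.0267). This C4bp call was lost with the covariate and with the length offset. Cfi, Clu and the surface regulators Cd55, Cd59a and Cr1l were called in no comparison by edgeR over all 56 mice without an offset or covariate. Cfi was called with nilotinib 30 mg/kg by DESeq2, limma and 3 other edgeR fits, and in ponatinib against nilotinib by DESeq2, limma and edgeR with the covariate, while Cd59a was called with ponatinib 10 mg/kg by limma and with the length offset. Over the 7 regulators the median log2 fold change was −0.09 with imatinib and 0.03 with ponatinib 10 mg/kg.

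**Figure D4:**
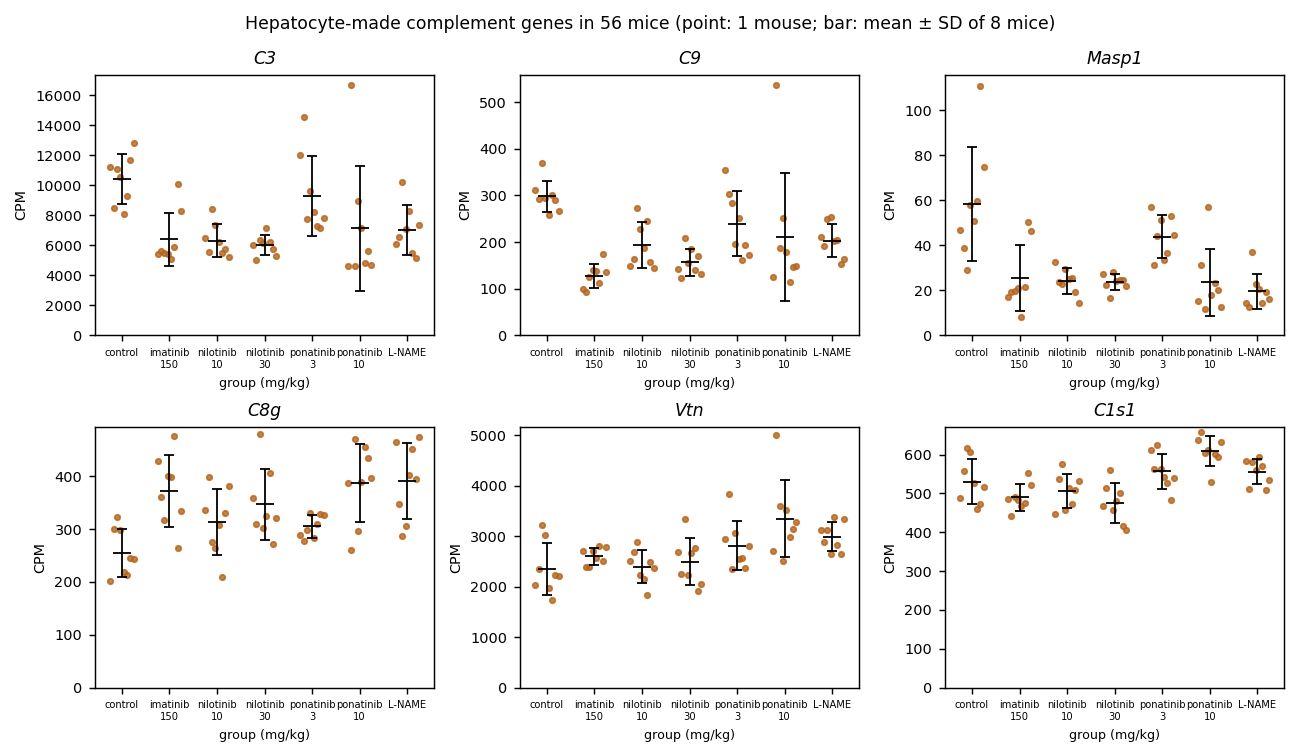
Level in CPM of 6 hepatocyte-made genes by group, each point 1 mouse and each bar the mean ± SD of 8 mice. C9 of all imatinib and nilotinib 30 mg/kg mice lies below every control mouse, and the highest point of C3, C9 and Vtn in the ponatinib 10 mg/kg group is the mouse that stood apart.

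Ponatinib 10 mg/kg was compared with the other drugs at their highest doses. Against nilotinib 30 mg/kg 3 of 33 members were called, all higher with ponatinib, beside 1.88% of all genes (0.922% higher, 0.957% lower). C1s1 was 528 to 659 CPM (median 608) with ponatinib and 406 to 561 CPM (median 473) with nilotinib 30 mg/kg, with 7 of 8 ponatinib mice above every nilotinib mouse and a difference of 0.36 ± 0.08 (SE, edgeR adjusted p = 0.00719). Mbl2 was 394 to 613 CPM (median 487) with nilotinib 30 mg/kg and differed by 0.41 ± 0.11 (SE, edgeR adjusted p = 0.0326). Vtn was 1907 to 3338 CPM (median 2464) and differed by 0.43 ± 0.12 (SE, edgeR adjusted p = 0.0423). Without the mouse that stood apart C1s1 (0.34, edgeR adjusted p = 0.0118) and Mbl2 (0.47, edgeR adjusted p = 0.00841) were still called, Vtn was not (0.32, edgeR adjusted p = 0.137), and C1qc and C3ar1 were lower with ponatinib (−0.80, edgeR adjusted p = 0.0408 and −1.33, edgeR adjusted p = 0.0493). When only these 2 groups entered the fit, 0 members were called, beside 0.996% of all genes. The differences of C3, Hc and Cfb were 0.25 ± 0.18 (SE, edgeR adjusted p = 0.594), 0.50 ± 0.15 (SE, edgeR adjusted p = 0.0605) and −0.48 ± 0.77 (SE, edgeR adjusted p = 0.86). Those of C1qa, C1qb and C1qc were −0.36 ± 0.21 (SE, edgeR adjusted p = 0.448), −0.47 ± 0.23 (SE, edgeR adjusted p = 0.349) and −0.63 ± 0.23 (SE, edgeR adjusted p = 0.152). Hc was called in this comparison, as higher with ponatinib, by DESeq2, limma and edgeR with the covariate or the length offset. Masp2 was called as higher by the same fits except the one with the covariate. C5ar1 was called as lower by DESeq2 and C1qc as lower by limma.

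Against imatinib 3 members were called, all higher with ponatinib 10 mg/kg, beside 1.08% of all genes (0.356% higher, 0.72% lower). They were C1s1, with 441 to 553 CPM (median 484) with imatinib and a difference of 0.31 ± 0.08 (SE, edgeR adjusted p = 0.0248), C6 and C9. C6, another pore component, was 13.1 to 93.1 CPM (median 28.3) with ponatinib and 8.87 to 33.6 CPM (median 14.9) with imatinib, differing by 1.10 ± 0.29 (SE, edgeR adjusted p = 0.0373). C9 differed by 0.73 ± 0.19 (SE, edgeR adjusted p = 0.0398). Without the mouse that stood apart none of the 3 was called, with 0.30, edgeR adjusted p = 0.0522 for C1s1, 0.74, edgeR adjusted p = 0.215 for C6 and 0.37, edgeR adjusted p = 0.33 for C9. The C6 and C9 calls thus rest on 1 library, whereas the size of the C1s1 difference was almost the same without it. The differences of C3, Hc and Cfb were 0.16 ± 0.18 (SE, edgeR adjusted p = 0.853), 0.37 ± 0.15 (SE, edgeR adjusted p = 0.285) and −0.59 ± 0.77 (SE, edgeR adjusted p = 0.883). The C1q genes had differences of 0.42 to 0.56 with edgeR adjusted p from 0.311 to 0.518.

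Between doses of the same drug no member was called by edgeR. For nilotinib 30 against 10 mg/kg the log2 differences of the 33 genes lay between −0.30 and 0.49, the smallest unadjusted p was 0.0827 (Masp2), and 0 genes were called in the whole table, where 1.32% of all genes and 0 members had an unadjusted p below 0.01. DESeq2 and limma also gave 0 members there, beside 0.014% and 0% of all genes. For C3 the difference was −0.07 with a 95% interval of −0.44 to 0.29, for C1qa 0.17 with −0.25 to 0.58, for C1qb −0.04 with −0.49 to 0.42, for C1qc 0.15 with −0.30 to 0.60 and for Cfb 0.06 with −1.48 to 1.60. For ponatinib 10 against 3 mg/kg 1 member had an unadjusted p below 0.01, Masp1, with −0.89 ± 0.26 (SE, edgeR adjusted p = 0.0714), beside 1.39% of all genes called (0.971% higher, 0.419% lower) and 5.78% at that unadjusted cut-off. DESeq2 called 1 member, beside 3.01% of all genes, and limma 4, beside 6.95%. With all mice the edgeR differences had 95% intervals of −0.75 to −0.02 for C3, −0.44 to 0.16 for Hc, −2.51 to 0.58 for Cfb, −0.30 to 0.53 for C1qa, −0.55 to 0.36 for C1qb and −0.46 to 0.44 for C1qc. Without the mouse that stood apart edgeR called 3, beside 2.22% of all genes, all lower at the higher dose. They were C3 (−0.69, edgeR adjusted p = 0.012), C9 (−0.54, edgeR adjusted p = 0.0487) and Masp1 (−0.96, edgeR adjusted p = 0.0435).

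**Figure D5:**
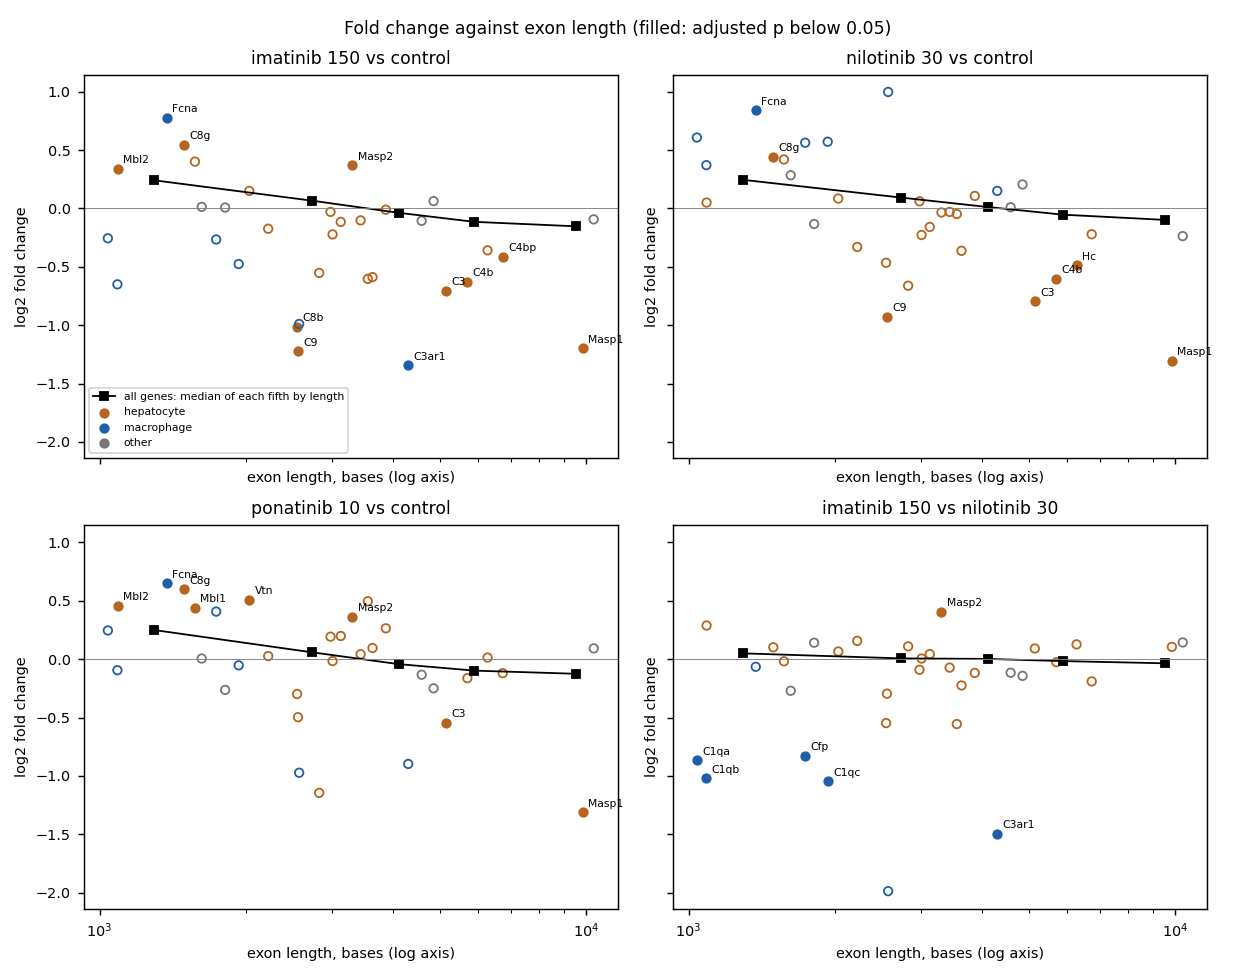
Log2 fold change of 33 complement genes against exon length (log axis), filled where adjusted p was below 0.05, with the black line through the medians of all genes in 5 classes of length. The line falls from 0.24 to −0.15 with imatinib against control and from 0.05 to −0.04 in imatinib against nilotinib 30 mg/kg, where the C1q genes, Cfp and C3ar1 lie well below it.

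Of 25 further complement genes, chosen by name as regulators, receptors and factor H-related genes, 22 were tested. With imatinib 3 (13.6%, beside 10.3% of all genes) were lower and 0 higher, the integrin chains of complement receptors 3 and 4, Itgb2 (−1.44, adjusted p = 0.00115) and Itgax (−1.60, adjusted p = 0.0472), and the scavenger collectin Colec12 (−0.51, adjusted p = 0.0365). Itgb2 and Colec12 were also lower with imatinib than with nilotinib 30 mg/kg (−1.46, adjusted p = 0.00191 and −0.55, adjusted p = 0.0476). With ponatinib 10 mg/kg 4 (18.2%, beside 13.1% of all genes) were called. Of these, Cfhr2 (0.54, adjusted p = 0.0012) and Cpn1, a subunit of the carboxypeptidase that inactivates C3a and C5a (0.36, adjusted p = 0.0131), were higher, and Cd93 (−1.42, adjusted p = 0.0174) and Colec12 (−0.56, adjusted p = 0.0165) lower. Colec12 was also lower with ponatinib 10 mg/kg than with nilotinib 30 mg/kg (−0.60, adjusted p = 0.0409). Serping1, the inhibitor of C1r and C1s, was higher with ponatinib 10 mg/kg than with imatinib (0.54, adjusted p = 0.0216). With nilotinib 30 mg/kg 1 (4.55%, beside 5.77%) was called, Cpn2 (−0.51, adjusted p = 0.0305). These shares are near those of all genes. Nilotinib 10 mg/kg, ponatinib 3 mg/kg and L-NAME had none called by edgeR, and 1, 0 and 1 at an unadjusted p below 0.01.

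Within groups, some members varied together from mouse to mouse. Across 56 mice, with group means subtracted from log2 CPM, 12 pairs were examined. The C1q chains were tightly related, with Pearson r of 0.90 for C1qa with C1qb, 0.90 for C1qa with C1qc and 0.91 for C1qb with C1qc (Spearman rho 0.87, 0.91 and 0.90, permutation p = 1e-05, the smallest that 100000 permutations can give, adjusted p = 1.71e-05 and 2e-05 over 12 pairs, r = 0.88 to 0.89 without the 2 most distant mice). C1qb was related to Cfp (r = 0.69, rho = 0.62, permutation p = 1e-05 and 4e-05, r = 0.64 without the 2 most distant mice) and C3ar1 (r = 0.55, rho = 0.59, permutation p = 0.0001 and 2e-05, r = 0.50 without 2 mice), and its r with Fcna was −0.03 (rho = −0.11, permutation p = 0.877 and 0.47, r = −0.18 without 2 mice). C8a and C8b, which are neighbours on chromosome 4, had r = 0.86 (rho = 0.81, permutation p = 1e-05, r = 0.81 without 2 mice). C8a and C8g had r = −0.31 (rho = −0.22, permutation p = 0.0344 and 0.135, adjusted p = 0.0458 and 0.162, r = −0.17 without 2 mice), and this relation rests on those mice. C3 varied with C4b (r = 0.79, rho = 0.73, r = 0.76 without 2 mice) and with Hc (r = 0.75, rho = 0.69, r = 0.71 without 2 mice), permutation p being 1e-05 for both. C1ra and C1s1, neighbours on chromosome 6, had r = 0.13 (rho = 0.20, permutation p = 0.387 and 0.158, r = 0.27 without 2 mice). Mbl1 and Mbl2 had r = 0.29 (rho = 0.28, permutation p = 0.0555 and 0.0491, r = 0.16 without 2 mice).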

How the data were processed

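Liver mRNA of 56 mice was sequenced with a library kit that does not mark strand, aligned to GRCm38 with TopHat2 2.0.14 (Bowtie2 2.1.0, SAMtools 0.1.18) and counted per gene with HTSeq 0.6.1p1, per the submitters' processing notes and the study's methods. The raw counts deposited by the authors, without reads that align to several places, were used as they are, and HTSeq's summary rows were kept out of library sizes. In edgeR 4.0.16 (R 4.3.3) counts were filtered with filterByExpr, scaled by TMM and fitted with the quasi-likelihood test over all 7 groups, with Benjamini-Hochberg adjustment over 14314 genes and a threshold of 0.05. limma 3.58.1 and DESeq2 1.42.0 served as alternatives. Single values were tested by exact permutation of mice (scipy 1.17.1). The SE printed for edgeR is the size of the log2 fold change divided by the square root of the quasi-likelihood F value. The 95% intervals are built from it with 49 residual degrees of freedom. On data simulated for ponatinib 10 mg/kg against control (14100 genes), 34 of 97 genes changed by 0.75 and 59 of 98 changed by 1.5 on the log2 scale were recovered, with 1 false call. The members and gene lists were chosen with earlier results of these data known. Members called in a comparison are described in full, at most 12 per comparison, and C3, Hc, Cfb and the C1q genes in each. Other complement genes are named where called, at most 5. The fits with the exon length offset, without the deepest library and without ponatinib 10 mg/kg replicate 2 were chosen after seeing the data. Acute phase genes were also named after their values were seen. RPKM was computed from the deposited counts and the exon lengths of the annotation. Promoter sequences are from RefSeq.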

Additional observations from a re-analysis of the deposited data

Results flagged for a closer look

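In 21 of 231 combinations of a complement gene and a group the highest or lowest of 8 mice lay apart from the others by a gap above Dixon's critical share of the group's range. For independent, normally distributed values chance alone gives about 1 in 20, or 5%. The combinations here share mice and some rest on few reads, so this share cannot tell whether 21 is an excess. In the ponatinib 10 mg/kg group C1s1 of replicate 5 (lowest of the group) was 528 CPM beside a group median of 608 CPM and C4bp of replicate 2 (highest of the group) was 973 CPM beside a group median of 423 CPM. There Clu of replicate 2 (highest of the group) was 3538 CPM beside a group median of 1378 CPM and C3ar1 of replicate 4 (lowest of the group) was 0.408 CPM beside a group median of 6.9 CPM. There C5ar1 of replicate 4 (lowest of the group) was 0 CPM beside a group median of 1.25 CPM and Colec10 of replicate 2 (lowest of the group) was 12.9 CPM beside a group median of 33.5 CPM. There Colec11 of replicate 2 (lowest of the group) was 16.7 CPM beside a group median of 58.6 CPM. In the ponatinib 3 mg/kg group C1qa of replicate 8 (lowest of the group) was 54.1 CPM beside a group median of 103 CPM and C1qb of replicate 8 (lowest of the group) was 59.2 CPM beside a group median of 133 CPM. There C1ra of replicate 3 (lowest of the group) was 134 CPM beside a group median of 181 CPM and C8a of replicate 2 (highest of the group) was 470.2 CPM beside a group median of 152 CPM. There Cfb of replicate 6 (lowest of the group) was 0 CPM beside a group median of 3.25 CPM and Colec10 of replicate 2 (lowest of the group) was 19.7 CPM beside a group median of 35.5 CPM. In the imatinib group C3ar1 of replicate 5 (lowest of the group) was 0.563 CPM beside a group median of 3.78 CPM and Cr1l of replicate 6 (lowest of the group) was 15.9 CPM beside a group median of 31.3 CPM. In the nilotinib 10 mg/kg group Hc of replicate 3 (highest of the group) was 786 CPM beside a group median of 474 CPM. In the nilotinib 30 mg/kg group C2 of replicate 8 (lowest of the group) was 37.4 CPM beside a group median of 52.5 CPM and Cfb of replicate 8 (lowest of the group) was 0 CPM beside a group median of 2.07 CPM. There Masp1 of replicate 3 (lowest of the group) was 16.7 CPM beside a group median of 24.3 CPM and Cd55 of replicate 2 (lowest of the group) was 3.29 CPM beside a group median of 14.4 CPM. In the control group C5ar1 of replicate 3 (lowest of the group) was 0.269 CPM beside a group median of 3.15 CPM. The C4bp, Clu, Colec10 and Colec11 values with ponatinib 10 mg/kg are all of the mouse that stood apart in its acute phase genes. The values of Cfb, C3ar1 and C5ar1 rest on 0 to 4 reads.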

How the results depend on the processing

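Of the 47 called log2 fold changes, 7 were called under every alternative run (C1qa, C1qb, C1qc and Cfp in imatinib against nilotinib 30 mg/kg, C9 and Masp1 with imatinib, Masp1 with L-NAME). Counts below are of complement genes called, with the percent of all genes in parentheses. The cause of a shift was not tested. With the share of reads outside exons as covariate, imatinib had 3 (4.56%), nilotinib 10 and 30 mg/kg 0 (0.0908%) and 0 (0.671%), ponatinib 10 mg/kg 1 (2.58%), L-NAME 1 (1.8%) and ponatinib 10 against nilotinib 30 mg/kg 5 (1.91%). With the exon length offset, nilotinib 10 and 30 mg/kg had 1 (0.957%) and 4 (3.49%), ponatinib 10 mg/kg 5 (10.6%), L-NAME 3 (8.61%) and ponatinib against nilotinib 5 (2.04%). Without the 10 libraries whose depth stood apart, imatinib had 6 (2.71%), nilotinib 10 mg/kg 0 (0%), ponatinib 10 mg/kg 4 (3.56%), L-NAME 2 (3.1%) and ponatinib against imatinib 0 (0.71%), with fewer mice. Without ponatinib 10 mg/kg replicate 2, nilotinib 10 mg/kg had 4 (1.64%), ponatinib 10 against 3 mg/kg 3 (2.22%) and ponatinib against imatinib 0 (0.96%). L-NAME had 8 (11.9%) without that mouse and 4 (9.71%) without L-NAME replicate 2. With only the 2 groups compared, nilotinib 10 mg/kg had 4 (2.24%), ponatinib 10 mg/kg 4 (13.3%), and ponatinib against imatinib and nilotinib 0 (0.588%) and 0 (0.996%). With limma, nilotinib 10 and 30 mg/kg had 7 (8.66%) and 12 (16.4%), ponatinib 3 and 10 mg/kg 4 (3.99%) and 14 (26.1%), L-NAME 11 (26.1%), ponatinib 10 against 3 mg/kg 4 (6.95%), ponatinib against imatinib 1 (0.915%) and against nilotinib 7 (5.32%). With DESeq2, nilotinib 10 mg/kg had 5 (3.52%), ponatinib 10 against 3 mg/kg 1 (3.01%) and ponatinib against nilotinib 7 (3.02%), and without the filter the last had 1 (0.865%). At an unadjusted p below 0.01, nilotinib 10 mg/kg had 6 (5.97%), ponatinib 10 against 3 mg/kg 1 (5.78%), ponatinib against imatinib 6 (4.09%) and against nilotinib 9 (5.64%). At an adjusted p below 0.01, imatinib had 4, nilotinib 10 and 30 mg/kg 1 and 4, ponatinib 10 mg/kg 4, L-NAME 2, ponatinib against imatinib 0 and against nilotinib 1, and imatinib against nilotinib 3. For this stricter cut-off the percent of all genes is not given, so these counts cannot be set against it. Signs turned only for differences that were not called. For ponatinib 3 mg/kg they became 0.0004338 (DESeq2's size factors), 0.0008159 (DESeq2) and 0.13 (without 10 libraries) for C1qb, −0.0095 for C1qa (limma), 0.0397 for C1qc and −0.0353 for Hc (both without 10 libraries). For ponatinib 10 mg/kg, Hc became −0.0829 (limma) and −0.19 (without 10 libraries), and C1qb 0.0772 (without 10 libraries), while Hc was between −0.10 without ponatinib 10 mg/kg replicate 2 and 0.0143 without L-NAME replicate 2. For L-NAME, Hc became 0.0201 with the covariate. Low counts limit Cfb, Cfd and C5ar1 most. No paired analysis was possible because the replicate numbers only name the mice and nothing in the labels ties mice of different groups together.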
